A study of Mus musculus with 16 samples.

Results

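The Cyp2b enzymes are cytochrome P450s of the liver that oxidize drugs, steroids and other fat-soluble compounds, and Cyp2b10 is the mouse gene most often used as a readout of the constitutive androstane receptor (CAR). CAR, encoded by Nr1i3, is held in the cytoplasm of hepatocytes in a complex with Hsp90 until drugs such as phenobarbital release it to the nucleus, where it binds DNA together with the retinoid X receptor. The pregnane X receptor (PXR), encoded by Nr1i2, binds drugs and bile acids directly and shares many of its target genes with CAR, and the reductase encoded by Por hands the microsomal P450s the electrons that they need. Cyp2b9 and Cyp2b13 are known as genes that adult female mice express at a higher level than males. The 6 genes Cyp2b9, Cyp2b10, Cyp2b13, Nr1i3, Nr1i2 and Por are described here, out of 24082 genes in the deposited table, 1 row per Ensembl gene. They were chosen by symbol with their IMC and ethanol differences in these same livers in view. Those differences and the calls given for them are therefore a description and no independent support.

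Whole livers came from female C57Bl6/J mice of 9 to 11 weeks at the start, which carried no engineered allele in the labels. Pair vehicle mice were fed a liquid control diet in amounts matched to the ethanol-fed mice, Pair IMC mice received the same diet with iodomethylcholine (IMC), EtOH vehicle mice a liquid diet in which ethanol was raised stepwise to 6% vol/vol over 25 days, and EtOH IMC mice ethanol and IMC together. IMC blocks the gut microbial enzyme that cleaves choline to trimethylamine (TMA), and it was mixed into the diet at 0.06% wt/wt. By the authors' account, adding IMC to the ethanol diet unexpectedly lowered both diet intake and body weight. EtOH IMC mice may therefore have taken in less ethanol and less food than EtOH vehicle mice. The authors also mark a body weight difference between pair-fed mice with and without IMC. The part of intake and body weight in any difference that uses an IMC group was not tested. Each group held 4 mice, with 1 RNA-seq library each. The libraries carry running numbers: odd numbers are ethanol-fed, even numbers pair-fed, Pair IMC and EtOH vehicle are numbered 1 to 8, and Pair vehicle and EtOH IMC 9 to 16. Each comparison of 2 groups made here therefore sets a low-numbered against a high-numbered group, and each diet comparison also sets odd against even numbers. Whether the numbers mark an order of handling is not given in the sources used here. The groups of 1 comparison and such an order therefore cannot be told apart. The same holds for the difference of the IMC effects between diets, which takes EtOH IMC and Pair vehicle together against EtOH vehicle and Pair IMC and so coincides with the whole split by number.

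Between 9632659 and 12601199 reads were counted on genes per library. Levels are normalized counts, in which 1 read was worth 0.906 to 1.18 as deposited, that were rescaled to a common scale over the 16 libraries. The log2 differences are taken on log2(value + 1) with their standard error (SE) from a limma fit over all 16 libraries and 12537 genes. A gene is said to be called where its adjusted p (Benjamini-Hochberg over all genes tested) was under 0.05. The 5 hepatocyte markers Alb, Ttr, Apoa1, Apob and Fgb were abundant in every library, and Fgb was called lower with ethanol in vehicle mice (log2 difference -0.63). Summed, the 5 stood at 1127800 to 1783500 in Pair vehicle and 1651600 to 1762740 in Pair IMC. With ethanol they stood at 1047950 to 1145290 in vehicle mice and 960736 to 1256840 in IMC mice. Markers of other cells were low beside them: the 6 stellate cell markers summed to 4230 to 5075 in EtOH vehicle and to 2722 to 4159 in the other 3 groups, the 7 Kupffer cell markers to 2396 to 6811 over all libraries, and 4 of the 7 pancreas markers had 0 reads in each group. Of the 5 intestinal markers 4 were in the table, Cdx2 had 0 reads in each library, and the summed level was 963 to 1088 in Pair vehicle, 453 to 620 in Pair IMC, 922 to 1037 in EtOH vehicle and 188 to 1256 in EtOH IMC. The value of 1256 belongs to library 11, which also stood apart from the other EtOH IMC livers in the Cyp2b genes below, and the Cyp2b differences that use EtOH IMC are given with and without it. In whole liver, fewer cells of a type and less RNA per cell cannot be told apart.

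Cyp2b10, Cyp2b13 and Cyp2b9 lie in this order on the plus strand of mouse chromosome 7, at 25897620 to 25926624, 26061497 to 26096197 and 26173411 to 26210661 (GENCODE vM21, GRCm38), and within these 313042 bases they are the 3 protein-coding genes. The 240 bases that end 11 bases before each gene's RefSeq start (GRCm38.p6) are shown because the genes moved differently, Cyp2b9 with Cyp2b13 and Cyp2b10 apart. Capitals mark matches to 2 motifs. The first is AGGTCA, the half-site that many nuclear receptors bind, searched on both strands. The second is a run of letters like that of the core promoter element near many gene starts, ATAAAA, searched on the gene's strand. Both motifs were picked after reading these sequences.
Cyp2b9: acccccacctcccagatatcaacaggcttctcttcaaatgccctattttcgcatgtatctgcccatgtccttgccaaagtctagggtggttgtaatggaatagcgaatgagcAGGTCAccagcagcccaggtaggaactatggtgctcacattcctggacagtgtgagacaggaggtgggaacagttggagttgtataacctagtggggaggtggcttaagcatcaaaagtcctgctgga
Cyp2b13: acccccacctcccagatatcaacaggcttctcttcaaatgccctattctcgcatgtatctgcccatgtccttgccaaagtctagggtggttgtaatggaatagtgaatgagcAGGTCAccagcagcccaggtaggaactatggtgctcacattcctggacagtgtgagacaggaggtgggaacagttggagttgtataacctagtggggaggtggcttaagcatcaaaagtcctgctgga
Cyp2b10: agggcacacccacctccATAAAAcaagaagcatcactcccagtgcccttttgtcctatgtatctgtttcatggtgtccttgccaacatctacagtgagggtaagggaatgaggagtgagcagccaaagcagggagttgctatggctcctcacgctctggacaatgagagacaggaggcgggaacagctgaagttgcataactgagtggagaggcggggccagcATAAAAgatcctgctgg
These are chr7:26173159-26173398, chr7:26061245-26061484 and chr7:25897408-25897647, all on the plus strand. The windows of Cyp2b9 and Cyp2b13 were the same at 238 of 240 positions, and the 2 exceptions, with positions counted from 1 at the 5′ end and the base of Cyp2b9 written first, were T48C and C104T. The window of Cyp2b10 matched that of Cyp2b9 at 176 of 230 aligned bases (76.5%). AGGTCA began 138 bases before the start in Cyp2b9 and Cyp2b13 and was not among the letters of the Cyp2b10 window; 13.5% of the 32851 promoter windows of this length in the RefSeq table hold it. ATAAAA began 27 and 233 bases before the RefSeq start of Cyp2b10 and was not found in the windows of Cyp2b9 or Cyp2b13, and 9.98% of all windows hold it. AGTTCA, another half-site (11.4% of windows), was found in none of the 3. GENCODE starts Cyp2b10 further upstream than RefSeq, so that the end of its window, with the ATAAAA nearest the RefSeq start, lies within the gene as GENCODE annotates it. Both motifs also occur together in the windows of Cyp2b19 and Cyp2b23, the other Cyp2b genes, where AGGTCA began 121 and 164 bases and ATAAAA 246 and 54 bases before the start. The enhancer through which CAR is known to act on Cyp2b10 lies further upstream than these windows reach.

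The transcripts are alike but not identical, which bears on how reads can be assigned. Over aligned bases, Cyp2b9 and Cyp2b13 were 91.9% identical, Cyp2b10 and Cyp2b13 88.5%, and Cyp2b10 and Cyp2b9 87.5%. Of the 1777 windows of 100 bases (the read length) in the Cyp2b9 transcript, 21 were also present in Cyp2b13 without a mismatch, and 0 in Cyp2b10. How reads that match several genes were counted is not given in the sources used here. In the pair-fed livers Cyp2b10 was counted at 32 to 76 reads beside 7572 to 9122 reads on Cyp2b9, so few reads of the abundant Cyp2b9 were assigned to Cyp2b10. The other Cyp2b genes of the table, Cyp2b19 and Cyp2b23, had 0 to 2 reads and 0 to 1 reads per library and were not tested.

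Cyp2b10 was the gene of the 6 that differed most between the diets. In Pair vehicle livers 10, 12, 14 and 16 its level was 66.9, 63.6, 89.2 and 57.0, and in Pair IMC livers 2, 4, 6 and 8 it was 68.1, 53.6, 32.1 and 74.3. In EtOH vehicle livers 1, 3, 5 and 7 it was 3528, 3031, 2765 and 6433. In EtOH IMC livers 9, 11, 13 and 15 it was 6441, 1463, 5347 and 4745. No pair-fed liver came near any ethanol-fed liver, in the low-numbered or in the high-numbered libraries, whereas the vehicle and IMC livers of each diet overlapped. The group means were 69.2 ± 13.95 (SD, n = 4) in Pair vehicle, 57.0 ± 18.8 in Pair IMC, 3939 ± 1692 in EtOH vehicle and 4499 ± 2142 in EtOH IMC. The mean was thus 56.9-fold higher with ethanol in vehicle mice (log2 difference 5.75, SE 0.37) and 78.9-fold higher with ethanol in IMC mice (6.15, SE 0.37). With IMC, the log2 difference was -0.32 in pair-fed and 0.08 in ethanol-fed mice, with the same SE of 0.37. Cyp2b10 also had the widest spread of the 6 genes among ethanol-fed livers: the coefficient of variation was 43.0% in EtOH vehicle, where liver 7 was high, and 47.6% in EtOH IMC, where liver 11 was low. Without liver 11 the IMC difference in ethanol-fed mice was 0.56, the ethanol difference in IMC mice 6.63, and the difference of the IMC effects 0.88 in place of 0.40. Each of these was the highest value reached by omitting 1 liver, and the lowest were -0.15, 5.90 and 0.16 in the same order. The sign of the IMC difference in ethanol-fed mice thus depended on which liver was omitted.

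**Figure D1:**
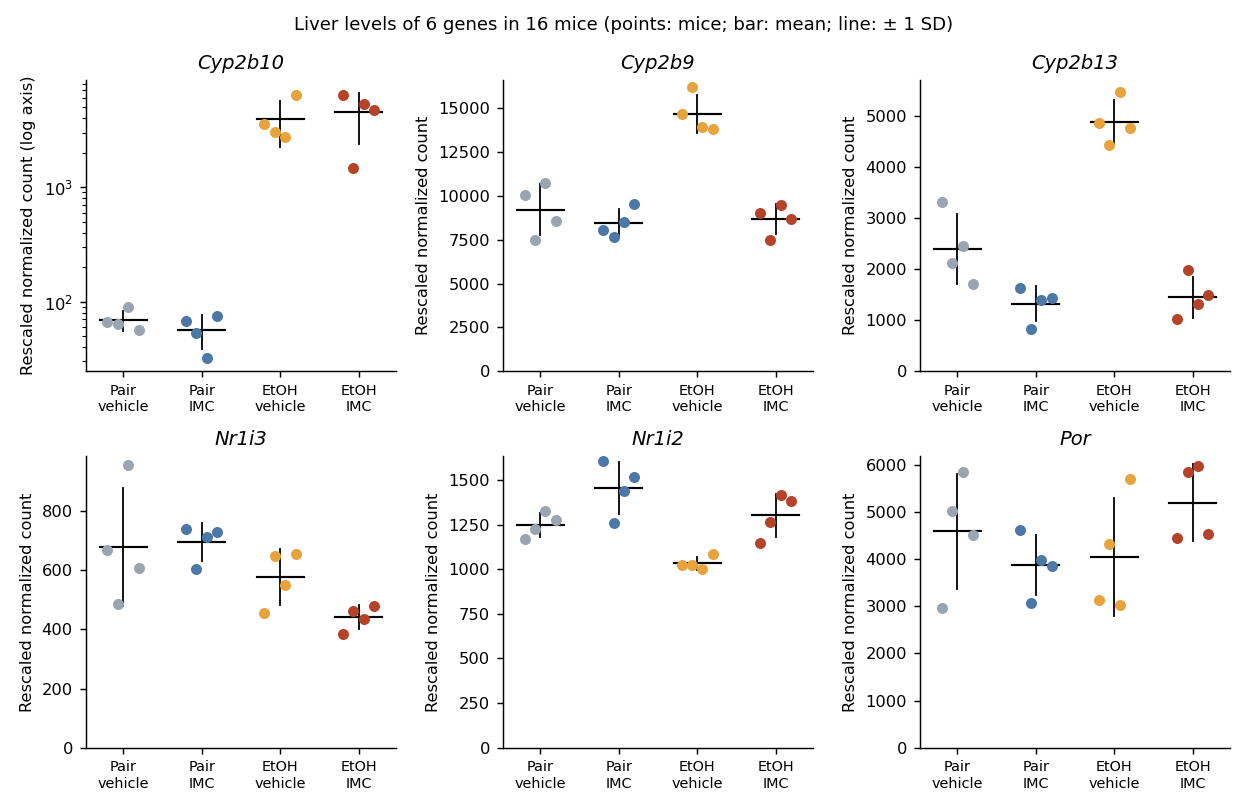
Level of each of the 6 genes (rescaled normalized count, y axis; a log axis for Cyp2b10, linear from 0 for the others) in each of 16 livers, with points for mice, a bar for the group mean and a line for ± 1 SD. Cyp2b10 lies between 32.1 and 89.2 in pair-fed and between 1463 and 6441 in ethanol-fed livers, while Cyp2b9 and Cyp2b13 are highest in EtOH vehicle.

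Cyp2b9, by far the most abundant of the 3, was higher in EtOH vehicle than in the other 3 groups, which overlapped with each other. Its level was 10023, 7478, 10704 and 8587 in Pair vehicle livers 10, 12, 14 and 16, and 8033, 7637, 8494 and 9539 in Pair IMC livers 2, 4, 6 and 8. It was 14675, 16170, 13930 and 13809 in EtOH vehicle livers 1, 3, 5 and 7, and 9035, 7454, 9485 and 8697 in EtOH IMC livers 9, 11, 13 and 15. The lowest EtOH vehicle liver was thus above each of the other 12 livers, and the ethanol-fed livers that received IMC were at the level of the pair-fed livers. The means were 9198 ± 1447, 8426 ± 820, 14646 ± 1086 and 8668 ± 871 in the same order of groups (SD, n = 4 each). Ethanol gave a log2 difference of 0.68 (SE 0.12) in vehicle mice and 0.04 (SE 0.12) in IMC mice. IMC gave -0.12 (SE 0.12) in pair-fed mice and -0.76 (SE 0.12) in ethanol-fed mice, and the difference of these IMC effects was -0.64 (SE 0.16). Without liver 11 the IMC difference in ethanol-fed mice was -0.69, the ethanol difference in IMC mice 0.11 and the difference of the IMC effects -0.57.

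Cyp2b13 had the same order of groups at the high end and larger differences, and it was also lower with IMC in mice without ethanol. Its level was 3322, 2121, 2451 and 1707 in Pair vehicle livers 10, 12, 14 and 16, and 1626, 838, 1395 and 1437 in Pair IMC livers 2, 4, 6 and 8. It was 4873, 4443, 5479 and 4769 in EtOH vehicle livers 1, 3, 5 and 7, and 1025, 1982, 1311 and 1502 in EtOH IMC livers 9, 11, 13 and 15. Each EtOH vehicle liver was above all others, the Pair vehicle livers came next and did not overlap with Pair IMC, liver 11 of EtOH IMC lay within the Pair vehicle range, and the IMC livers of the 2 diets overlapped. The means were 2400 ± 686 in Pair vehicle, 1324 ± 339 in Pair IMC, 4891 ± 433 in EtOH vehicle and 1455 ± 402 in EtOH IMC (SD, n = 4 each). The EtOH vehicle mean was 3.36-fold the EtOH IMC mean (log2 difference with IMC -1.78, SE 0.22), and the Pair vehicle mean 1.81-fold the Pair IMC mean (-0.86, SE 0.22). Ethanol gave a log2 difference of 1.07 (SE 0.22) in vehicle and 0.14 (SE 0.22) in IMC mice. The difference of the IMC effects was -0.93 (SE 0.31). Without liver 11 the IMC difference in ethanol-fed mice was -1.95, the ethanol difference in IMC mice turned to -0.02 and the difference of the IMC effects was -1.09.

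The stellate cell marker sum, given above, was likewise highest in EtOH vehicle, and the intestinal marker sum was lower with IMC in all livers but liver 11. Of the 6 stellate markers, 2 (Col3a1 and Reln) were called lower with IMC in ethanol-fed mice and 2 (Dcn and Lrat) higher with ethanol in vehicle mice, and Fabp2 of the intestinal markers was called lower with IMC in ethanol-fed mice (-1.401, SE 0.37, adjusted p = 0.0121). With IMC in pair-fed mice, where Cyp2b13 was lower, the bile duct marker sum was 616 to 700 beside 710 to 1222 in Pair vehicle, and the pancreas marker sum 72.1 to 88.5 beside 125 to 157, without overlap. Of these markers Krt7 (-1.52), Ctrb1 (-3.56) and Cela1 (-0.52) were called lower (adjusted p = 0.0385, 0.0265 and 0.0274). The part of these markers in the Cyp2b9 and Cyp2b13 differences was not tested.

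Among the EtOH IMC livers the order of Cyp2b10 was the reverse of that of Cyp2b13. Liver 9 had the highest Cyp2b10 (6441) and the lowest Cyp2b13 (1025), livers 13 and 15 followed, and liver 11 had the lowest Cyp2b10 (1463) and the highest Cyp2b13 (1982). With 4 livers this is a description of their order. In EtOH vehicle the orders were not reversed: liver 7, highest for Cyp2b10 at 6433, was the third of 4 for Cyp2b13 at 4769.

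**Figure D2:**
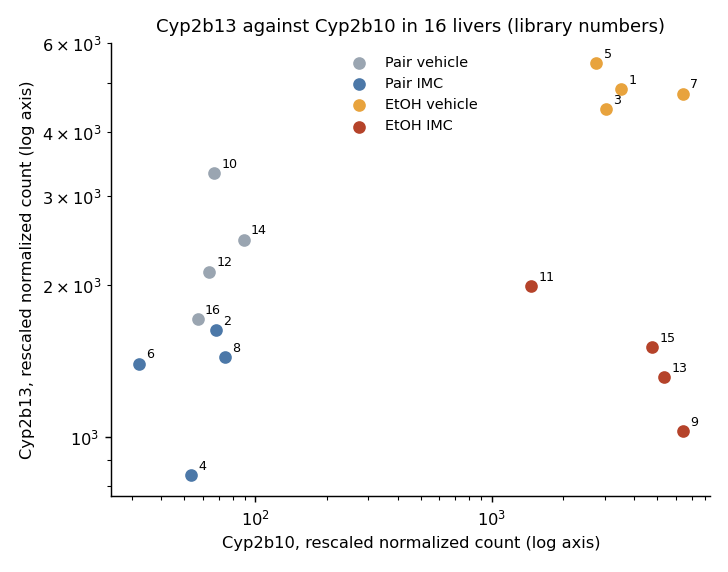
Cyp2b13 (y axis) against Cyp2b10 (x axis) in the 16 livers, both as rescaled normalized counts on log axes, with library numbers beside the points. The 4 EtOH IMC livers share the high Cyp2b10 of ethanol-fed mice (1463 to 6441) and the low Cyp2b13 of IMC mice (1025 to 1982), and lie on a falling line.

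To compare the 3 enzymes with each other, levels were divided by exon length (2112, 1876 and 1875 bases for Cyp2b10, Cyp2b9 and Cyp2b13). Summed over the 3 genes, the level per kilobase was 6216 ± 1033 in Pair vehicle, 5225 ± 550 in Pair IMC, 12281 ± 546 in EtOH vehicle and 7527 ± 1244 in EtOH IMC (SD, n = 4 each). Each EtOH vehicle liver (11656 to 12950) was above each EtOH IMC liver (5723 to 8413), and EtOH IMC overlapped with both pair-fed groups. The make-up changed as well as the sum. Cyp2b9 held 79.0% ± 3.65 of the sum per kilobase in Pair vehicle and 86.1% ± 2.86 in Pair IMC, against 63.7% ± 5.17 in EtOH vehicle and 62.0% ± 5.21 in EtOH IMC. Cyp2b10 held 0.529% ± 0.075 and 0.517% ± 0.155 in the pair-fed groups, 15.03% ± 5.78 in EtOH vehicle and 27.0% ± 10.4 in EtOH IMC. Cyp2b13 held 20.5% ± 3.67 in Pair vehicle, 13.4% ± 2.85 in Pair IMC, 21.3% ± 2.71 in EtOH vehicle and 10.96% ± 5.26 in EtOH IMC. In 3 of the 4 EtOH IMC livers (9, 13 and 15) Cyp2b10 held 29.2% to 36.3% and was above Cyp2b13, whereas in liver 11 it held 12.1% beside 18.5% for Cyp2b13.

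**Figure D3:**
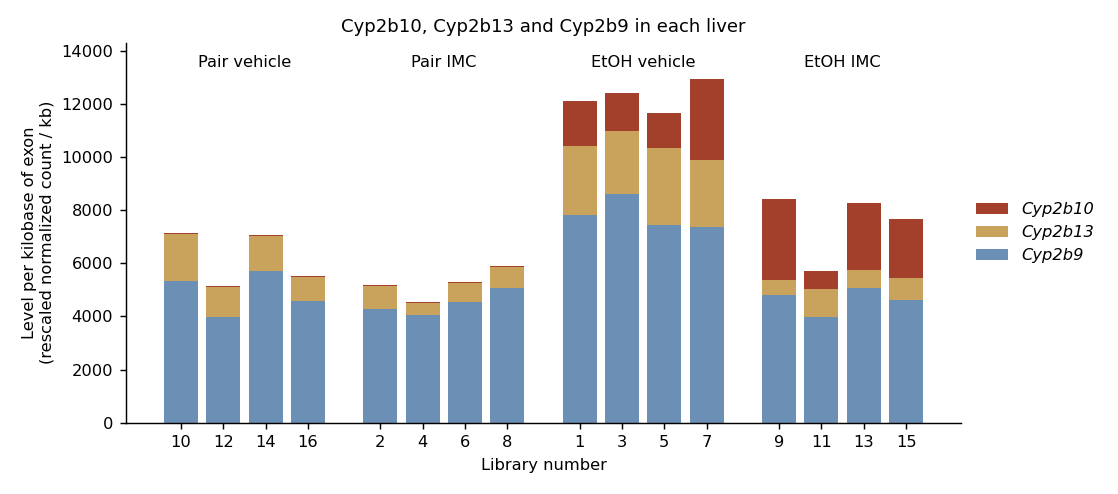
Level of Cyp2b9, Cyp2b13 and Cyp2b10 per kilobase of exon (rescaled normalized count per kb, y axis from 0), stacked for each of the 16 livers by library number (x axis) and group. The stacks of EtOH vehicle reach 11656 to 12950, and Cyp2b10, a wide segment in ethanol-fed livers, is a thin line in pair-fed livers.

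Nr1i3, the gene of CAR, was lowest in EtOH IMC. Its level was 668, 484, 958 and 607 in Pair vehicle livers 10, 12, 14 and 16, and 739, 603, 712 and 729 in Pair IMC livers 2, 4, 6 and 8. It was 454, 648, 549 and 654 in EtOH vehicle livers 1, 3, 5 and 7, and 386, 461, 436 and 479 in EtOH IMC livers 9, 11, 13 and 15. The EtOH IMC livers lay below each pair-fed liver and overlapped with EtOH vehicle, and Pair vehicle, where liver 14 was high, overlapped with both Pair IMC and EtOH vehicle. The means were 679 ± 201, 696 ± 62.9, 576 ± 94.6 and 441 ± 40.7 in the same order of groups (SD, n = 4 each). Ethanol gave a log2 difference of -0.21 in vehicle and -0.66 in IMC mice, and IMC gave 0.07 in pair-fed and -0.38 in ethanol-fed mice, each with an SE of 0.16. In the values as deposited, which were scaled within each diet, the ethanol differences were -0.02 and -0.47. In livers where Cyp2b10 was many-fold higher, the receptor's own RNA was therefore not higher. Nr1i3 overlaps with Tomm40l on the other strand, Por with a lincRNA and a pseudogene on the other strand, and Cyp2b13 with a processed pseudogene on its own strand. Whether reads were counted by strand is not given in the sources used here.

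Nr1i2, the gene of PXR, had a higher mean with IMC in both diets and varied little within groups, with a coefficient of variation of 3.51% in EtOH vehicle to 10.1% in Pair IMC. Its level was 1171, 1224, 1326 and 1276 in Pair vehicle livers 10, 12, 14 and 16, and 1603, 1259, 1437 and 1514 in Pair IMC livers 2, 4, 6 and 8. It was 1023, 1021, 1002 and 1085 in EtOH vehicle livers 1, 3, 5 and 7, and 1149, 1264, 1413 and 1384 in EtOH IMC livers 9, 11, 13 and 15. EtOH vehicle was the lowest group and overlapped with none of the others, and the 3 other groups overlapped with each other. The means were 1249 ± 66.6 in Pair vehicle, 1453 ± 146 in Pair IMC, 1033 ± 36.2 in EtOH vehicle and 1303 ± 121 in EtOH IMC (SD, n = 4 each). IMC gave a log2 difference of 0.21 in pair-fed and 0.33 in ethanol-fed mice, and ethanol -0.27 in vehicle and -0.16 in IMC mice (SE 0.08 each). The ethanol differences depend on the scale, being -0.08 and 0.04 in the values as deposited, which were scaled within each diet.

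Por, the electron donor of the P450s, overlapped between all groups. Its level ranged from 2972 to 5857 in Pair vehicle, from 3068 to 4622 in Pair IMC, from 3016 to 5699 in EtOH vehicle and from 4449 to 5981 in EtOH IMC. The means were 4586 ± 1212, 3881 ± 637, 4043 ± 1253 and 5200 ± 823 (SD, n = 4 each). The log2 differences were -0.21 and 0.40 with IMC in pair-fed and ethanol-fed mice and -0.19 and 0.42 with ethanol in vehicle and IMC mice, each with an SE of 0.21. In the values as deposited the ethanol differences were 0.0013 in vehicle and 0.62 in IMC mice, the latter called by limma (adjusted p = 0.035). Per kilobase of exon Por stood at 1293 ± 205 in EtOH IMC, below the 7527 of the 3 Cyp2b genes together.

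**Figure D4:**
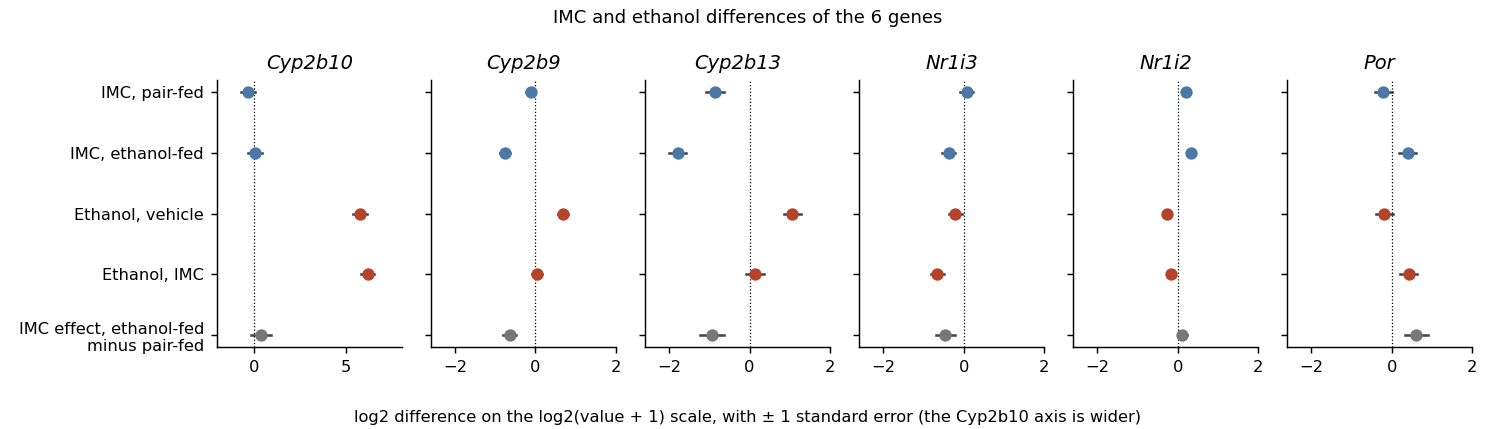
log2 differences of the 6 genes (x axis, on the log2(value + 1) scale) for IMC in each diet, ethanol in vehicle and IMC mice, and the difference of the IMC effects between diets (rows), with points for the estimate and lines for ± 1 SE. Cyp2b10 lies at 5.75 and 6.15 for ethanol on a wider axis, Cyp2b13 at -1.78 for IMC with ethanol, and Por within 0.61 of 0 in each row.

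In the fit over all genes, IMC in pair-fed mice called 0 of the 6 genes higher and 1 lower (Cyp2b13), where 4.32% of the 12537 genes tested were called higher and 5.17% lower. IMC in ethanol-fed mice called 1 higher (Nr1i2) and 2 lower (Cyp2b9 and Cyp2b13), beside 10.4% and 11.1% of all genes. Ethanol in vehicle mice called 3 higher (Cyp2b9, Cyp2b10 and Cyp2b13) and 1 lower (Nr1i2), beside 6.33% and 5.54%. Ethanol in IMC mice called 1 higher (Cyp2b10) and 1 lower (Nr1i3), beside 7.86% and 8.57%. The difference of the IMC effects between diets called 0 of the 6 in limma, beside 0.319% of all genes above 0 and 0.79% below, with 2 of the 6 (Cyp2b9 and Cyp2b13) at an unadjusted p under 0.05; edgeR called 0 of them and DESeq2 called 1 (Cyp2b9). Since these contrasts chose the genes, nothing is read from the counts. Of the calls, that of Cyp2b13 with IMC in pair-fed mice was lost without library 10 (log2 difference -0.69) or without library 4 (-0.65), and that of Nr1i2 with ethanol was lost without any 1 of the 4 EtOH vehicle livers, without library 6, or without library 12, 14 or 16 (-0.30 to -0.24 over the livers left out in turn). The call of Nr1i2 with ethanol in vehicle mice was also lost without a filter, as deposited, and with quantile normalization. It was lost as well without a mean-variance trend and with edgeR on upper quartile scaling. Nr1i3 with IMC in ethanol-fed mice was called without library 14 and with only the libraries of the contrast (-0.38 in each).

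Genes for proteins that hold, pair with or assist CAR and PXR were listed as well. Of 22 genes on a list of partners and regulators, 2 were called higher and 2 lower with IMC in pair-fed mice, 1 and 1 with IMC in ethanol-fed mice, 2 and 0 with ethanol in vehicle mice and 2 and 0 with ethanol in IMC mice, and 0 for the difference of the IMC effects by limma, edgeR and DESeq2, with 2 at an unadjusted p under 0.05 in limma. The list's median log2 difference was between -0.012 and 0.019 in the 5 contrasts, and that of all genes between -0.0072 and 0.0034. Of all genes tested, 4.32% were called higher and 5.17% lower with IMC in pair-fed mice, and 10.4% and 11.1% in ethanol-fed mice. With ethanol the shares were 6.33% and 5.54% in vehicle and 7.86% and 8.57% in IMC mice. For the difference of the IMC effects they were 0.319% and 0.79%. Hsp90aa1, a chaperone of the cytoplasmic CAR complex and of many other proteins, rose with ethanol from 1305 ± 160 to 4225 ± 877 in vehicle mice (log2 difference 1.68, SE 0.24, adjusted p = 0.000542) and by 1.33 in IMC mice (adjusted p = 0.00144). Hsp90ab1, its second cytoplasmic form, rose with ethanol by 0.63 in vehicle mice (SE 0.12, adjusted p = 0.0028). Hnf4a, a nuclear receptor needed for much of the P450 expression of hepatocytes, rose with IMC in both diets, by 0.71 in pair-fed (SE 0.13, adjusted p = 0.00322) and 0.62 in ethanol-fed mice (adjusted p = 0.00298). Rxra, the partner receptor of CAR and PXR on DNA, was at 5739 ± 836, 5685 ± 678, 5602 ± 681 and 5689 ± 179 in the order of groups used above. Foxa2, a factor of liver-specific transcription, fell by 0.74 with IMC in pair-fed mice (adjusted p = 0.0362), a call that was lost without any 1 of 7 of the 8 pair-fed livers, and rose by 0.81 with ethanol in IMC mice (SE 0.21, adjusted p = 0.0149), a call that was kept under all 29 alternatives. In the values as deposited 5 of the 22 were called higher with ethanol in vehicle mice and 7 in IMC mice. Over all genes, 3000 and 3624 were then called in either direction, in place of 1488 and 2060. The 2 lower with IMC in pair-fed mice were 0 without library 2.

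**Figure D5:**
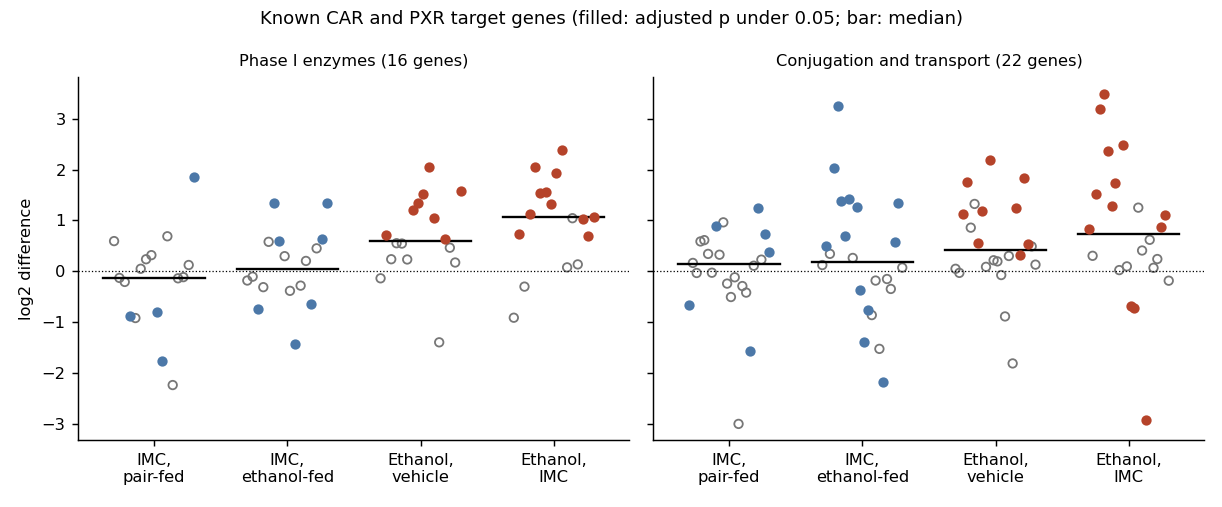
log2 differences (y axis) of 16 phase I enzymes (left) and 22 conjugation and transport genes (right) known as CAR or PXR targets, for IMC in each diet and ethanol in vehicle and IMC mice (x axis). Filled points passed an adjusted p of 0.05, open points did not, and bars are medians, which reach 1.06 and 0.73 for ethanol in IMC mice.

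Genes known from other work to respond to CAR or PXR were given by a list of 16 phase I enzymes and a list of 22 conjugating enzymes and transporters. Like the other lists used here, they were chosen with earlier results of these data known. Their counts and adjusted p are therefore a description and no independent support. Over the 38 genes together, ethanol called 17 higher and 0 lower in vehicle mice, with a median log2 difference of 0.54, and 21 higher and 3 lower in IMC mice, with a median of 0.95. Of all genes tested 6.33% were called higher and 5.54% lower with ethanol in vehicle mice, and 7.86% and 8.57% in IMC mice, with medians of -0.0072 and 0.0034. Between 14 and 17 genes were called higher with ethanol in vehicle mice when a library was left out in turn, and 21 or 22 in IMC mice. IMC called 5 higher and 5 lower in pair-fed mice (median 0.010) and 13 higher and 7 lower in ethanol-fed mice (median 0.16), beside 4.32% and 5.17% of all genes in pair-fed and 10.4% and 11.1% in ethanol-fed mice, with medians of -0.00092 and -0.0016. The counts with IMC in ethanol-fed mice were 8 to 15 higher and 5 to 7 lower with a library left out, the 8 without library 1, and those in pair-fed mice 2 to 6 higher, the 2 without library 6, and 3 to 6 lower, the 3 without library 4. For the difference of the IMC effects, 0 were called above 0 and 1 below, and without library 11 there were 3 above 0.

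Among the phase I enzymes, ethanol called 8 of 16 higher in vehicle mice and 11 of 16 higher in IMC mice, with 0 lower in either. The Cyp2c P450s, which like the Cyp2b enzymes metabolise drugs and fatty acids, made up several of these. Cyp2c54 rose by 2.05 with ethanol in vehicle mice (SE 0.35, adjusted p = 0.00182) and by 2.39 in IMC mice (adjusted p = 0.000311), and with IMC it fell by 1.76 in pair-fed (adjusted p = 0.00516) and fell by 1.43 in ethanol-fed mice (adjusted p = 0.00804). Cyp2c54 thus rose with ethanol like Cyp2b10 and fell with IMC like Cyp2b13. Cyp2c50 rose with ethanol by 1.52 in vehicle mice (SE 0.19, adjusted p = 0.000236) and by 1.94 in IMC mice (adjusted p = 8.13e-06). Ephx1, the microsomal epoxide hydrolase, rose in each of these 4 contrasts, by 1.86 with IMC in pair-fed mice (SE 0.22, adjusted p = 0.00013), 1.34 with IMC in ethanol-fed mice, 1.59 with ethanol in vehicle mice and 1.07 with ethanol in IMC mice, so that its mean was 1591 ± 287 in Pair vehicle and 12674 ± 4700 in EtOH IMC. Cyp1a2 rose by 2.05 with ethanol in IMC mice (SE 0.34, adjusted p = 0.00083). Cyp2a5, a coumarin hydroxylase of the same gene cluster as Cyp2b10, rose by 1.35 with IMC in ethanol-fed mice (SE 0.36, adjusted p = 0.0141), a call that was lost without library 1. The sequences of the Cyp2c genes are close to each other, and reads could have been divided among them.

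Among the conjugating enzymes and transporters, ethanol called 9 of 22 higher and 0 lower in vehicle mice and 10 higher and 3 lower in IMC mice. Abcc4, a pump that exports conjugates and bile acids to blood, stood at 68.8 ± 21.4 in Pair vehicle, 101 ± 21.5 in Pair IMC, 232 ± 62.6 in EtOH vehicle and 979 ± 387 in EtOH IMC. It rose by 1.75 with ethanol in vehicle mice (SE 0.29, adjusted p = 0.00145), by 3.19 with ethanol in IMC mice (adjusted p = 2.74e-06) and by 2.03 with IMC in ethanol-fed mice (adjusted p = 0.000157). Gsta1, a glutathione transferase, rose by 3.25 with IMC in ethanol-fed mice (SE 0.62, adjusted p = 0.00156) and by 3.50 with ethanol in IMC mice (adjusted p = 0.0013), from means of 71.3 ± 44.7 in EtOH vehicle and 50.5 ± 16.03 in Pair IMC to 693 ± 409 in EtOH IMC. Gstm3, of another transferase class, rose with ethanol by 2.18 in vehicle mice (SE 0.36, adjusted p = 0.00142). Sult5a1, a sulfotransferase, fell by 2.18 with IMC in ethanol-fed mice (SE 0.36, adjusted p = 0.000521) and fell by 1.56 in pair-fed mice (adjusted p = 0.0129), the latter call being lost without library 4. Ugt1a9, a glucuronosyltransferase, was the gene of the 38 called for the difference of the IMC effects: it rose with IMC by 1.24 in pair-fed mice (adjusted p = 0.000177), its IMC difference in ethanol-fed mice was -0.35, and the difference of the 2 was -1.59 (SE 0.22, adjusted p = 0.00166). Its exons overlap with those of the other Ugt1a genes, so that reads may be shared.

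P450s need haem and electrons, and apart from Por 16 genes of haem synthesis, haem breakdown and electron supply were listed. Ethanol called 2 of 16 higher in vehicle mice, and 2 higher and 2 lower in IMC mice; IMC called 1 higher in pair-fed mice, and 3 higher and 2 lower in ethanol-fed mice. Over all genes the shares were 6.33% higher with ethanol in vehicle mice, 7.86% higher and 8.57% lower with ethanol in IMC mice, and 10.4% and 11.1% with IMC in ethanol-fed mice. The 3 higher with IMC in ethanol-fed mice were 1 without library 13, and the 2 higher with ethanol in vehicle mice were 1 without library 5 and 5 in the values as deposited. Alas1, the rate-limiting enzyme of haem synthesis in liver and itself a known CAR and PXR target, rose with ethanol by 1.61 in IMC mice (SE 0.29, adjusted p = 0.0015) and by 1.08 in vehicle mice (adjusted p = 0.0243), the latter call being lost without library 5, 7 or 10. Its mean was 2821 ± 1146 in Pair vehicle, 1978 ± 683 in Pair IMC, 5581 ± 1426 in EtOH vehicle and 5857 ± 832 in EtOH IMC. Uros and Alad, later enzymes of the pathway, each fell by 0.49 with IMC in ethanol-fed mice (adjusted p = 0.00275 and 0.00699).

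Because Cyp2b9 and Cyp2b13 are higher in female than in male mice, other sex-biased liver genes were listed beside them. Of 12 female-biased genes, IMC called 5 lower and 1 higher in pair-fed mice and 8 lower and 1 higher in ethanol-fed mice, with median log2 differences of -0.97 and -1.81. With a library left out the first count was 3 to 6, the 3 without library 4, and the second 8 to 10. Ethanol called 2 lower and 1 higher in vehicle mice and 8 lower and 0 higher in IMC mice, the latter 5 without library 13 and 3 with edgeR without library 15. Over all genes, IMC called 5.17% lower and 4.32% higher in pair-fed mice (median -0.00092), and 11.1% and 10.4% in ethanol-fed mice (median -0.0016). With ethanol 5.54% of all genes were called lower and 6.33% higher in vehicle mice, and 8.57% and 7.86% in IMC mice. Cyp3a16, a P450 of female and young mice, had a mean of 3975 ± 1066 in Pair vehicle, 305 ± 143 in Pair IMC, 2931 ± 1140 in EtOH vehicle and 21.97 ± 22.8 in EtOH IMC, and it fell by 8.07 with IMC in ethanol-fed mice (SE 0.83, adjusted p = 8.7e-06) and fell by 3.82 in pair-fed mice (adjusted p = 0.00909). With IMC, Cyp3a41b fell by 4.92 in ethanol-fed (SE 0.68, adjusted p = 0.000119) and fell by 3.08 in pair-fed mice (adjusted p = 0.00997), and Cyp3a44 fell by 3.25 in ethanol-fed mice (SE 0.51, adjusted p = 0.000336). The Cyp3a genes are near-identical copies whose reads could have been divided among them. A1bg, a plasma protein gene, fell by 2.87 with ethanol in vehicle mice (SE 0.69, adjusted p = 0.0128), where Cyp2b9 and Cyp2b13 were higher. Hao2, a peroxisomal oxidase, and Prlr, the prolactin receptor, were called for the difference of the IMC effects, at -1.06 (SE 0.23, adjusted p = 0.0384) and -0.70 (SE 0.16, adjusted p = 0.0395), and both calls were lost without any 1 of several libraries, each of the 4 EtOH vehicle libraries among them. Of 12 male-biased genes 7 passed the filter on low values; IMC called 2 higher and 1 lower in each diet, Gstp1 by 1.49 and 1.86 (adjusted p = 0.000169 and 5.91e-06), Mup20 by 1.53 and 1.86 (adjusted p = 0.000146 and 6.18e-06), while for Selenbp2 the difference was -1.58 and -1.4001 (adjusted p = 0.00703 and 0.00626). Of the rest of the list, 4 were tested and not called and 5 were too low to test.

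Cyp2b10 is a gene of the hepatocytes around the central vein, and lists of pericentral and periportal genes were examined. Of 12 pericentral genes, ethanol called 1 higher and 0 lower in vehicle mice and 2 higher and 3 lower in IMC mice, and IMC called 2 lower in pair-fed and 4 lower in ethanol-fed mice, with 0 higher. Over all genes the shares were 6.33% higher and 5.54% lower with ethanol in vehicle mice, 7.86% and 8.57% with ethanol in IMC mice, and 5.17% and 11.1% lower with IMC in pair-fed and ethanol-fed mice. The 4 lower with IMC in ethanol-fed mice were 6 without library 1. The 2 in pair-fed mice, Oat and Lect2, were both lost without any 1 of libraries 4, 6, 10, 12 and 14. Cyp2e1, the pericentral P450 that oxidizes ethanol, fell by 0.82 with IMC in ethanol-fed mice (SE 0.20, adjusted p = 0.00893) and fell by 0.9999 with ethanol in IMC mice (adjusted p = 0.0034). Of 11 periportal genes, ethanol called 2 higher in vehicle mice and 4 higher and 2 lower in IMC mice, and IMC called 1 lower in pair-fed mice and 2 higher and 4 lower in ethanol-fed mice. The 4 higher with ethanol in IMC mice were 7 without library 5 and 7 in the values as deposited, the 2 in vehicle mice were 6 as deposited, and the 4 lower with IMC in ethanol-fed mice were 2 without library 3. Cyp2f2, a periportal P450 of the same cluster as the Cyp2b genes, rose by 0.78 with ethanol in vehicle mice (SE 0.12, adjusted p = 0.00112), fell by 1.38 with IMC in ethanol-fed mice (adjusted p = 2.52e-06) and was called for the difference of the IMC effects at -1.49 (SE 0.17, adjusted p = 0.000436). Its means of 5358 ± 188, 5805 ± 647, 9286 ± 1456 and 3561 ± 621 in the order of groups used above were highest in EtOH vehicle, as those of Cyp2b9 and Cyp2b13 were.

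Over the 16 livers, the gene whose log2 level was most like that of Cyp2b10 was Abcc3, another efflux pump and known CAR target (Pearson r = 0.960), followed by Adam11 (0.949) and Tmem8 (0.946). For Cyp2b9 these were Dlst, of the citric acid cycle (0.957), the membrane protease Mme (0.933) and the transporter Slc47a1 (0.921), and for Cyp2b13 they were 4931406C07Rik (0.951), Pcca (0.946) and Cyp4v3 (0.943). Cyp2b9 and Cyp2b13 had an r of 0.826 with each other, and Cyp2b10 an r of 0.526 with Cyp2b9 and 0.344 with Cyp2b13. For Nr1i3 the leading genes were Ist1 (0.894), Fam160b1 (0.888) and Il15ra (0.879), for Nr1i2 Wipi2 (0.930), Cabyr (0.884) and Vprbp (0.876), and for Por Snd1 (0.857), A930033H14Rik (0.799) and Prps1 (0.798). The r of Nr1i3 with Cyp2b10 was -0.618. These values describe 16 livers that share 4 group means and 1 scaling, and carry no test.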

How the data were processed

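Liver RNA-seq of 16 mice was analysed from the gene table of the authors, who trimmed reads with Trim Galore, checked them with FastQC, used STAR for alignment to mm10 and edgeR for normalization; the counting tool is not given in the sources used here, and the labels describe paired-end reads where the methods describe single-end reads. The deposited signal values are read counts divided by a size factor per library: dividing by the value of 1 read gave whole reads, to a tolerance of 0.01, for 100% of values, and 1 read was worth 0.906 to 1.18. In library 15 this value is close to 1, so that whole reads are least secure there. The factors were set within each diet, so the values were rescaled by a median ratio over all 16 libraries, computed on 13121 genes (by 0.934 to 1.07). Of 27212 rows, 430 IDs had several symbols with identical values and were used once.

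Genes at 10 or more in at least 4 libraries (12537; all 6 members passed) were fitted with limma 3.58.1 in R 4.3.3 on log2(value + 1), giving each group its own mean, with a trended prior variance. Tests were two-sided and p-values adjusted after Benjamini and Hochberg. The fit was tested on simulated data. The p-values set each difference of group means against the spread between mice within groups, estimated over all 16 libraries. Alternatives were other pseudocounts, filters and scalings, the count tests of edgeR 4.0.16 and DESeq2 1.42.0, and leaving out libraries in turn; both tools without library 15 were added after seeing the data. The genes named are the 6 members, the other Cyp2b genes, up to 3 genes per list and contrast with the largest difference among those called, the 3 genes most like each member, and, chosen after their values were seen, Rxra and the markers named. The members and lists were chosen with earlier results of these data known. Transcripts and positions are from GENCODE vM21 and were compared with biopython 1.88, and promoters, found for all 6 members, are from RefSeq. Standard errors cover the spread between mice, and reads carry no molecular identifiers.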

Additional observations from a re-analysis of the deposited data

How the results depend on the processing

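Of 30 differences of the 6 genes, 10 were called. The genes were chosen with these differences in view and the alternatives refit the same livers, so that kept signs are no independent support. Over 29 alternatives, 27 of them planned, none of the called differences changed sign. Of the values, 860 of 864 moved by less than 1 SD between livers. The other 4 were ethanol differences in the values as deposited, which are scaled within each diet: Cyp2b9 moved to 0.87 in vehicle and 0.23 in IMC mice, and Nr1i2 to -0.08 and 0.04. In all, 16 calls of members were lost and 5 gained. For IMC in pair-fed mice, 0 members were called with only the libraries of the contrast, and for the difference of the IMC effects 1 with DESeq2, with or without library 15. Leaving out each library gave 0 to 1 members called for IMC in pair-fed mice, 3 to 4 for IMC in ethanol-fed mice, 3 to 4 for ethanol in vehicle mice, 2 for ethanol in IMC mice and 0 for the difference.

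Over all genes, 1189 were called for IMC in pair-fed mice (691 with only its libraries; 537 to 1443 with a library left out), 2693 for IMC in ethanol-fed mice (1987 to 2823), 1488 for ethanol in vehicle mice (3000 as deposited; 803 to 1595) and 2060 for ethanol in IMC mice (3624 as deposited, 1352 with edgeR without library 15; 1368 to 2213). For the difference of the IMC effects 139 were called, 80 without a filter, 82 without a mean-variance trend, 340 with DESeq2, 256 with DESeq2 and 72 with edgeR without library 15, and 54 to 164 with a library left out. The causes were not tested. No paired analysis was possible because the groups share no replicate number. The depth of pair-fed livers, 32 to 76 reads on Cyp2b10, limits its IMC difference there, and 4 mice per group limit all others.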
